A study of Homo sapiens with 2 samples.

Results

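The precursor mir-625 (hsa-mir-625, gene MIR625) is a human miRNA hairpin that lies inside FUT8, the gene of the fucosyltransferase that adds core fucose to N-glycans, on the same strand as the gene. It was taken as the row of that name in a table of counts for AGO3 and in one for AGO2, 1 of 1038 precursors counted in either. It was chosen by its measured counts, which were much higher with AGO3, so its own ratio is a description and no test was made on it. All read stacks that name FUT8 or the precursor were added, 46 of the 502547 stacks of a list that pools libraries. The small RNA came from HEK293 T-Rex cells, a human embryonic kidney line, expressing FLAG-tagged AGO3 in 1 library and FLAG-tagged AGO2 in the other; the FLAG tag and the cell line are common to both. With 1 library for each protein no difference has a replicate check, and the 3′ adapter sequence also differed between the libraries, so that protein, adapter and library cannot be told apart.

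Argonaute proteins hold a miRNA strand and use bases near its 5′ end, the seed, to find target RNAs. Human AGO2 can cut a fully paired target, and AGO3 is a close relative of it. A miRNA hairpin is cut by Drosha in the nucleus and by Dicer in the cytoplasm to a short duplex, of which 1 strand is kept. Both strands of the miR-625 duplex have names, miR-625-5p and miR-625-3p, and miR-625-3p has been studied in colorectal cancer. The counts here cover both arms of the hairpin together, so which arm was held could not be measured.

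The hairpin and both mature strands are shown first because the 2 arms of this hairpin are almost exact complements of each other. Sequences and positions are those of RefSeq, build GRCh38.p14. In the hairpin, capitals mark the mature strands; in each mature strand, capitals mark the seed, bases 2 to 8.
mir-625 hairpin (chr14:65471102-65471186, plus strand): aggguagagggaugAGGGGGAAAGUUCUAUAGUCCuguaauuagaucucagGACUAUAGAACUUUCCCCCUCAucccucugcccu
miR-625-5p (chr14:65471116-65471136, plus strand): aGGGGGAAaguucuauagucc
miR-625-3p (chr14:65471153-65471174, plus strand): gACUAUAGaacuuucccccuca

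Of the 21 bases of miR-625-5p, a run of 20 is perfectly complementary to miR-625-3p, which is 22 bases long. Within the whole 85-base hairpin, the longest stretch whose reverse complement follows it without a mismatch was 32 bases. The predicted fold (RNAfold) paired 87.1% of the hairpin's bases.

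The count of mir-625 was far higher with AGO3. It had 9638 counts in the AGO3 library and 1163 in the AGO2 library. These made up 0.315% of all precursor counts in AGO3 (exact Clopper-Pearson 95% interval 0.309 to 0.322) and 0.0334% in AGO2 (0.0315 to 0.0353), a share 9.45 times as large in AGO3. On the log2 scale the ratio of AGO3 over AGO2 was 3.24 (3.15 to 3.33). Intervals cover counting error only, since the files give reads, and several reads can be copies of 1 molecule. By count, mir-625 ranked 66 among the precursors in AGO3 and 175 in AGO2. The totals behind these shares were 3055417 precursor counts for AGO3 and 3485257 for AGO2, which are 65.5% and 52.2% of all reads of those libraries.

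A total of 411 precursors had 100 or more counts in the libraries together. Of these 24.6% differed by 2-fold or more, 15.8% towards AGO3 and 8.76% towards AGO2. The ratio of mir-625 was at rank 5 of the 411. Towards AGO3, 22 reached 4-fold and 6 reached 8-fold. Among the 221 precursors with at least 1000 counts mir-625 ranked 3, and among the 99 with at least as many counts as mir-625 it ranked 1.

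**Figure D1:**
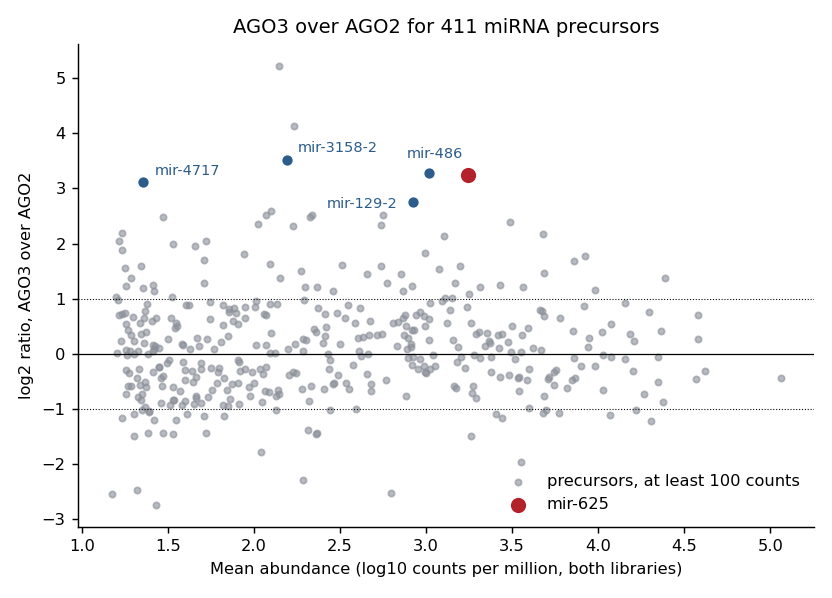
The log2 ratio of AGO3 over AGO2 (vertical axis) is plotted against mean abundance in log10 CPM (horizontal axis) for precursors with at least 100 counts, 1 point each, with dotted lines at 2-fold. The point of mir-625 (red) lies at 3.24, and the 4 precursors nearest to it in ratio are named in blue.

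Most precursors of like abundance had a lower ratio. The 20 precursors nearest to mir-625 in mean level, in counts scaled to a common library total (CPM), had a median log2 ratio of -0.04 and ranged between -1.49 and 1.59. Of these 20, 4 reached 2-fold towards AGO3 and 1 towards AGO2. Over the 50 nearest the highest was mir-486 at 3.28, the only one at or above mir-625. The nearest was mir-221, a repressor of the cell cycle inhibitor p27, with 6782 counts in AGO3 and 4309 in AGO2, a log2 ratio of 0.84 (0.79 to 0.90). The let-7g precursor, of the family that regulates developmental timing, had 4686 counts in AGO3 and 6400 in AGO2, a ratio of -0.26 (-0.31 to -0.21). For mir-140, which lies in the WWP2 gene and is best known from cartilage, the counts were 6652 in AGO3 and 5136 in AGO2, a ratio of 0.56 (0.51 to 0.62). On the log2 scale, mir-130a stood at -0.03, mir-1306 at -0.06, mir-23a at -0.59, mir-30b at -0.71 and mir-19b-2 at -1.49. Of the 10 nearest, the highest were mir-1260a, an entry that overlaps tRNA sequence, at 1.09, and mir-1296, in the JMJD1C gene, at 1.59. The 10 nearest precursors lay between 953 and 2398 CPM in AGO3 and between 786 and 2685 CPM in AGO2. The level of mir-625 was above that range in AGO3, at 3154 CPM, and below it in AGO2, at 334 CPM. This restates its ratio, since the 10 were matched to it on the mean of both libraries.

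**Figure D2:**
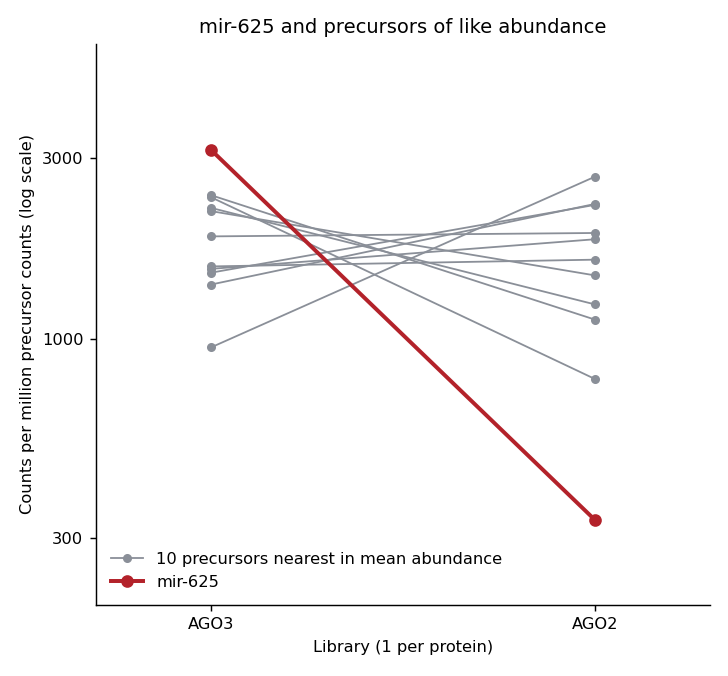
Level in CPM of precursor counts (log scale) in the AGO3 library (left) and the AGO2 library (right), with a line joining the values of each precursor. For mir-625 (red) the level was 3154 in AGO3 and 334 in AGO2; the 10 precursors nearest in mean abundance (grey) lay between 953 and 2398 in AGO3 and between 786 and 2685 in AGO2.

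The 10 precursors whose log2 ratio was nearest to that of mir-625 ranged between 2.47 and 3.52. Likeness here is the absolute difference of 1 ratio over 2 libraries, so it says nothing of a shared origin. The nearest was mir-486, known from muscle and from developing red blood cells, with 5745 counts in AGO3 and 672 in AGO2, a ratio of 3.28 (3.17 to 3.40). Next came mir-4717 at 3.11 (2.40 to 4.01), from 125 counts in AGO3 and 16 in AGO2. The precursor mir-3158-2 had 871 counts in AGO3 and 86 in AGO2, a ratio of 3.52 (3.21 to 3.87). These 3 had counting intervals that overlapped that of mir-625, and the other 7 lay below it. They were mir-129-2 at 2.75, mir-550b-2 at 2.59, mir-138-1, mir-3158-1 and mir-550a-1 at 2.52 each, and mir-659 and mir-550b-1 at 2.47. The sequence table holds mature strands for 7 of these 10 precursors, not for mir-486, mir-550b-1 and mir-550b-2, and mir-625 shared bases 2 to 8 with none of the 7. The 2 seeds that occurred more than once belonged to mir-3158-1 and mir-3158-2, whose hairpins face each other on opposite strands of 1 locus. Counts of the mir-3158 pair and of the mir-550 copies are uncertain as their own, since the sources used here do not state how reads matching several precursors were counted.

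**Figure D3:**
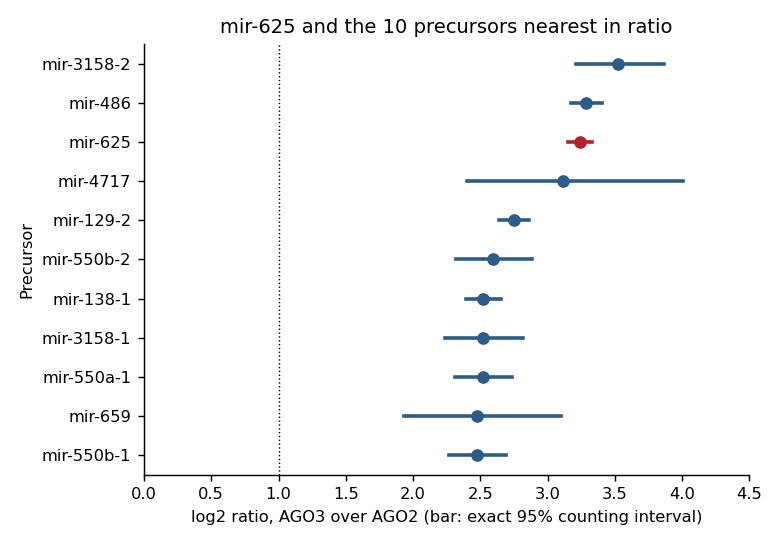
The log2 ratio of AGO3 over AGO2 (horizontal axis) for mir-625 (red) and the 10 precursors nearest to it in ratio, with bars for the exact 95% counting interval and a dotted line at 2-fold. Only the bars of mir-486, mir-4717 and mir-3158-2 overlap that of mir-625 (3.15 to 3.33).

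The seed of miR-625-3p, over bases 2 to 8 or 2 to 7, was found in no other mature miRNA of the sequence table, and that of miR-625-5p over bases 2 to 8 in none either. Bases 2 to 7 of miR-625-5p, in capitals here, were shared by 6 others, of which 3 have precursors in the count tables.
miR-4525 (chr17:82668281-82668301, minus strand): gGGGGGAugugcaugcugguu
miR-4723-5p (chr17:28360660-28360683, plus strand): uGGGGGAgccaugagauaagagca
miR-5010-5p (chr17:42514208-42514229, plus strand): aGGGGGAuggcagagcaaaauu

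These precursors were rare. The count of mir-4525 was 160 in AGO3 and 98 in AGO2, a log2 ratio of 0.89 (0.53 to 1.27), and it was the only one of the 3 with at least 100 counts. For mir-4723 there were 32 counts in AGO3 and 41 in AGO2, and for mir-5010 there were 22 in AGO3 and 10 in AGO2. Both intervals, -0.88 to 0.53 for mir-4723 and 0.19 to 2.57 for mir-5010, lay below that of mir-625.

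The long perfect stem of mir-625 was set beside those of other hairpins. RefSeq hairpins were found for 282 of the 411 precursors with at least 100 counts. The median of their longest perfect stem was 8 bases and 90% were at or below 14 bases. Only mir-3158-1, mir-3158-2 and mir-4717 had a longer one than mir-625, at 33 bases each, and mir-3912 had the same length. Per base, the predicted fold of mir-625 was more stable than that of all but 2 of these hairpins, at -0.88 kcal/mol per base against a median of -0.47. Of the 282, those with a perfect stem of at least 30 bases are listed by falling log2 ratio, with both strands of the stem in capitals.
mir-3158-2 (chr10:101601417-101601497, minus strand): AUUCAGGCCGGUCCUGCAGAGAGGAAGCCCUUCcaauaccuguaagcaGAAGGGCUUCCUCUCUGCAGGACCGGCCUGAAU
mir-625 (chr14:65471102-65471186, plus strand): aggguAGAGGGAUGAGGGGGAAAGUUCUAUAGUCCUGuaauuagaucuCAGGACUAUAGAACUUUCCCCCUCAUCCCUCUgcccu
mir-4717 (chr16:2274620-2274691, plus strand): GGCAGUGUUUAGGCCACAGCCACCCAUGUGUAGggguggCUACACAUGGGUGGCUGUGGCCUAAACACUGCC
mir-3158-1 (chr10:101601417-101601497, plus strand): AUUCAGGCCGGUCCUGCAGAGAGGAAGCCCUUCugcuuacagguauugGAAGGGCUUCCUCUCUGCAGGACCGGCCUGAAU
mir-3657 (chr12:112037599-112037715, minus strand): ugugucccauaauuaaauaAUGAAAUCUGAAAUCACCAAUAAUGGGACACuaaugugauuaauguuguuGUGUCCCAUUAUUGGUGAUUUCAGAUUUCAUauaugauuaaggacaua
mir-1258 (chr2:179860836-179860908, minus strand): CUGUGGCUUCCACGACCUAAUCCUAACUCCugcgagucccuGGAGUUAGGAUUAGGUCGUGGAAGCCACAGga
mir-3912 (chr5:171386656-171386760, minus strand): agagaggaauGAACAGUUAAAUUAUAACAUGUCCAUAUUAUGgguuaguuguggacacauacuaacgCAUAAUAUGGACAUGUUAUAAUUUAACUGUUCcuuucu
mir-3910-2 (chr9:91636264-91636345, minus strand): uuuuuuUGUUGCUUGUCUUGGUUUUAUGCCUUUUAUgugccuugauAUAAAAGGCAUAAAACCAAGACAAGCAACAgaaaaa

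The first 6 of these 8 hairpins, mir-625 included, reached 2-fold towards AGO3, whereas the last 2 did not. Over all 411 precursors the share was 15.8%. Of the 6, mir-3158-2, mir-4717 and mir-1258 had 86, 16 and 37 counts in AGO2, so they passed the minimum only with their AGO3 counts. The mir-3158 pair is 1 locus, and mir-625 was chosen for its ratio. The precursor mir-3657 had 622 counts in AGO3 and 273 in AGO2, a ratio of 1.38 (1.17 to 1.59). For mir-1258, in the ZNF385B gene, there were 77 counts in AGO3 and 37 in AGO2, a ratio of 1.24 (0.66 to 1.85). In contrast mir-3912 had 153 counts in AGO3 and 252 in AGO2, a ratio of -0.53 (-0.83 to -0.23), and mir-3910-2 had 45 in AGO3 and 77 in AGO2, a ratio of -0.58 (-1.15 to -0.04). Of these, mir-3912 alone had a stem of the same length as mir-625. The locus of mir-3910-2 on chromosome 9 also holds mir-3910-1, which has a perfect stem of 30 bases too. That precursor had 47 counts in AGO3 and 41 in AGO2, below the minimum, and a ratio of 0.38 (-0.25 to 1.03). How reads matching both were counted is not stated.

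A perfect stem of at least 20 bases was found in 66 counted precursors, of which 14 passed the minimum of 100 counts and 52 did not. Of the 14, mir-625 included, 9 reached 2-fold towards AGO3 and 0 towards AGO2, with a median log2 ratio of 1.79. Without mir-625, which was chosen for its ratio, 8 of 13 reached 2-fold towards AGO3, with a median of 1.38. Of the 268 with a shorter stem, 38 (14.2%) were at least 2-fold higher and 21 (7.84%) at least 2-fold lower, and the median was 0.17. The minimum bears on this count: 6 of the 9 had fewer than 100 counts in AGO2 and passed it only with their AGO3 counts. With the minimum set on AGO2 alone, a setting chosen after seeing the data, 7 of the long stems remained and 3 of them, mir-625, mir-3657 and mir-3158-1, were at least 2-fold higher, with a median of -0.27. Of the shorter stems 28 of 225 (12.4%) were so, with a median of 0.11. The highest were mir-642b at 5.22 and mir-642a at 4.13, with a stem of 21 bases each; these hairpins also face each other on opposite strands, so that their counts are uncertain as their own. The 5 that were lower in AGO3 were mir-374b at -0.27, mir-374c at -0.29, mir-3912, mir-3910-2 and mir-561 at -0.83. Scaled by all reads of each library, mir-374b and mir-374c stood at 0.05 and 0.04, and with median of ratios mir-561 stood at -1.02, past 2-fold towards AGO2. The hairpins of mir-374b and mir-374c face each other on opposite strands as well, so their counts too are uncertain as their own. Several of the 14 share sequence, and counted once by sequence 7 of 11, mir-625 included, were at least 2-fold higher. Across all 282 hairpins the relation was weak by rank: Spearman's rho of stem length and log2 ratio was 0.10 and Pearson's r was 0.35. The points share 2 libraries, and copies share sequence. Among 149 rarer hairpins of 20 to 99 counts, 6 of 20 with a stem of at least 20 bases reached 2-fold towards AGO3, as did 33 of 129 (25.6%) of the others. Base composition also moved with the ratio: GC content had a rho of 0.29 with the log2 ratio, though that of mir-625 was 48.2%, against a median of 53.0%. Fold energy per base had a rho of -0.29 and an r of -0.43 with it. For the paired share of bases rho was 0.01 and for hairpin length 0.00. The part of stem length and of these features in the ratios was not tested.

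**Figure D4:**
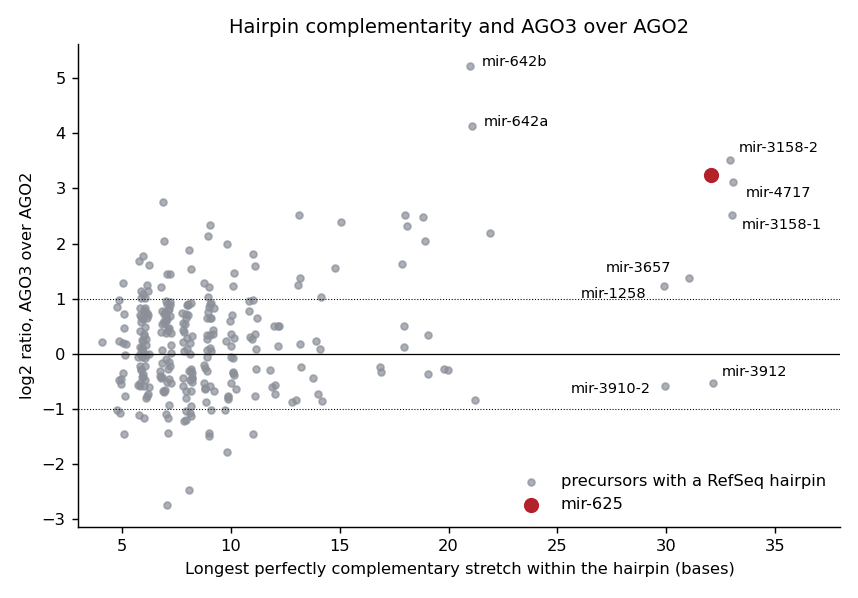
The log2 ratio of AGO3 over AGO2 (vertical axis) against the longest perfectly complementary stretch within the hairpin in bases (horizontal axis, points spread sideways by a small random amount) for 282 precursors, with dotted lines at 2-fold. With mir-625 (red, 32 bases) stand mir-3158-1, mir-3158-2 and mir-4717 above 2-fold, while mir-3912 and mir-3910-2 lie below 0.

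On chromosome 14 outside the DLK1-DIO3 cluster, 7 other precursors with at least 100 counts had a position in the stacks. Their median log2 ratio was 0.65, between -0.53 for mir-1247 and 1.09 for mir-1260a. Hairpins within a protein-coding gene of the same strand, as mir-625 is, were at least 2-fold higher in AGO3 in 29 of 158 (18.4%), mir-625 included, with a median of 0.26. Hairpins in no protein-coding gene were so in 13 of 107 (12.1%), with a median of -0.01. Those within a protein-coding gene of the opposite strand only were so in 5 of 17 (29.4%), with a median of 0.72. The share over all 411 precursors was 15.8%.

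The read stacks give the FUT8 locus itself, in build hg19, without separating AGO3 from AGO2. No stack carried the name of mir-625 in sense or antisense, although its 10801 counts over both libraries put it among the 100 precursors with at least 10000 counts. Of these 100, 12 had no stack of their name; the other 11 are numbered copies of a miRNA, such as let-7a-1 and mir-26a-2, and mir-625 is not. All 20 of the precursors of like abundance had one, with a median of 105724 reads. Of all 411 precursors with at least 100 counts, 81 (19.7%) had no named stack. Of the 10 precursors nearest in ratio, 5 had none, namely mir-486, mir-3158-2 and the 3 mir-550 entries.

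The 46 stacks that name FUT8 held 282 reads in all, over 332 kb of chromosome 14. In sense to the gene there were 31 stacks with 119 reads, and in antisense 15 stacks with 163 reads. Single reads made up 23 of the sense and 7 of the antisense stacks. Most sense reads, 110 in 26 stacks, lay in introns of transcript NM_004480 alone, and 9 reads in 5 stacks touched its exons. A median stack was 23 bases long in both directions.

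A pair of stacks held 62.2% of the sense reads. They lay 13 bases apart in intron 2 of NM_004480, at chr14:65937580-65937605 with 36 reads and chr14:65937619-65937641 with 38 reads. Both are annotated as within 500 bases upstream of the start of another transcript, which the list names by identifier only. They were 26 and 23 bases long and carried 0.167 and 0.237 edits per read, a field read here as differences from the reference. No other sense stack had more than 5 reads. The stacks and the hairpin are given in different builds, so no distance between them was computed.

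Antisense reads were concentrated in 3 intronic stacks. The largest, at chr14:66126282-66126313 in intron 5, had 49 reads, lay in a repeat annotated as snRNA and carried 0.531 edits per read. In intron 2, the stack at chr14:65944578-65944600 had 46 reads and 0.304 edits per read. In intron 6, the stack at chr14:66171208-66171226 had 40 reads with 1 edit in each on average. A smaller one, with 11 reads and no edits, lay at chr14:65879269-65879304 over exon sequence of LOC645431, a noncoding gene on the opposite strand (FUT8-AS1 in RefSeq). Stacks over that gene held 21 of the antisense reads.

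**Figure D5:**
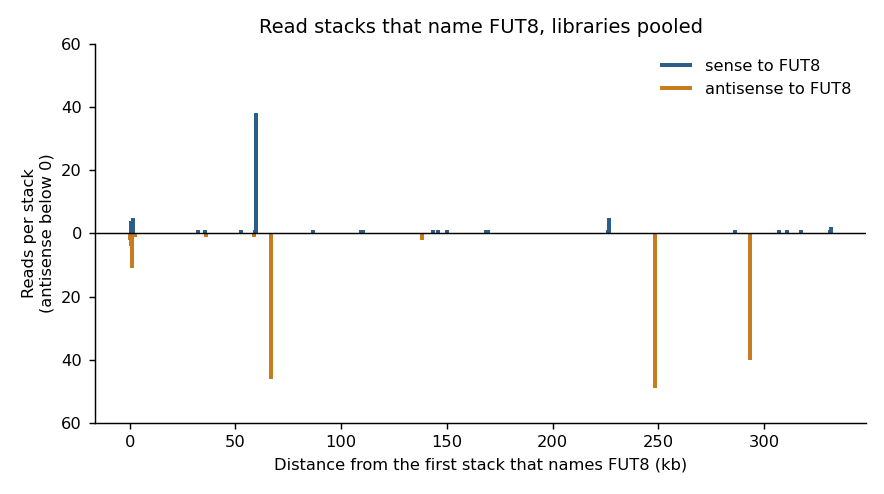
Reads per stack (vertical axis, sense upward and antisense downward) against distance in kb from the first stack that names FUT8 (horizontal axis), libraries pooled. The pair of sense stacks with 36 and 38 reads coincides at this scale, and the 3 largest antisense stacks hold 49, 46 and 40 reads.

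Among 11555 protein-coding genes with a sense stack, FUT8 ranked 1914 by sense reads, with 119 against a median of 36. Per kb of gene length it had 0.307 sense reads against a median of 0.899 over those genes. Of 18 genes for fucosyltransferases and for the making and transport of GDP-fucose, 15 had sense stacks. The one with more sense reads than FUT8 was GMDS, the first enzyme of GDP-fucose synthesis from GDP-mannose, with 156 reads or 0.251 per kb. Next after FUT8 came POFUT1, the O-fucosyltransferase of Notch, with 80 reads, and POFUT2, which fucosylates thrombospondin repeats, with 68. The GDP-fucose transporter SLC35C1 had 35 reads, and FUT10 and FUT11 had 52 and 46. The Lewis enzymes FUT3 and FUT6 had no stack in either direction and their relative FUT5 had 20 sense reads; these genes are close copies, so the reads may be split between them arbitrarily. FUT8 had 163 antisense reads, GMDS 119 and each other gene of the list at most 36. Without stacks that name a repeat, FUT8 had 109 antisense reads, and no such value is given here for the other genes.

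Markers of other cell types were also counted. Liver mir-122 had 2 counts in AGO3 and 1 in AGO2, and the 5 counted pluripotency precursors summed to 4 in AGO3 and 8 in AGO2. The 4 counted muscle precursors summed to 35.7 CPM in AGO3 and 17.2 CPM in AGO2. The 6 neuronal precursors summed to 3032 CPM in AGO3 and 2744 CPM in AGO2, and their members went both ways. The 3 mir-9 copies were higher in AGO3, at 712, 1152 and 892 CPM against 643, 810 and 629 CPM in AGO2, though mir-9-1 stood at a log2 ratio of -0.04 with median of ratios and -0.01 with TMM scaling. The 3 mir-124 copies were lower in AGO3, at 104, 106 and 65.1 CPM against 173, 169 and 320 CPM in AGO2. Of the 5 blood precursors 4 were counted, with a sum of 1951 CPM in AGO3 and 280 CPM in AGO2, of which mir-486 alone gave 1880 and 193. The erythroid mir-451a had 1 count in AGO3 and 3 in AGO2, and mir-144 had 32 in AGO3 and 103 in AGO2. The part of other cells in the ratio of mir-625 was not tested.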

How the data were processed

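Small RNA bound to FLAG-tagged AGO3 or AGO2 was sequenced from HEK293 cells, 1 library each. The deposited tables hold raw read counts per miRNA precursor; they sum to the mapped reads of the file headers, 3055417 of 4667236 reads (AGO3) and 3485257 of 6674064 (AGO2). The submitters' processing notes name hg19 and Bowtie2 2.1.0 but no role for either; for the miRBase release, mismatches, strand and multiple matches the treatment is not given in the sources used. The deposited stack list gives a count of reads per stack, pooled over libraries, and an entropy score per the file fields, which was not used. Per the labels, the 5′ adapter adds 2 random bases to each read.

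The deposited counts were divided by the sum over precursors after adding a pseudocount of 0.5, scaled to library size, and the AGO3 value was divided by the AGO2 value and put on the log2 scale, with an exact Clopper-Pearson 95% interval. A count of 0 allows up to 3 counts, 0.982 CPM in AGO3 and 0.861 CPM in AGO2. Precursors with at least 100 counts were compared; no p-value was computed, and the fold threshold was 2. The calculation was checked on simulated counts. The members and lists were chosen with earlier results of these data known, and the stem lengths after the ratios were seen. Precursors named are mir-625, the 10 nearest in ratio, the 10 nearest in abundance, those sharing a seed and those of chromosome 14 that have a stack; stacks named are the largest of FUT8, and other hairpins were named for their stems after their values were seen. Hairpins were matched to RefSeq by name and folded with RNAfold 2.7.2. Alternatives used median-of-ratios and TMM (edgeR 4.0.16) scalings, other minimums and other stack choices. Software was R 4.3.3, scipy 1.17.1, numpy 2.4.6, matplotlib 3.10.9, pandas 2.3.3 and Python 3.11.15.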

Additional observations from a re-analysis of the deposited data

How the results depend on the processing

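The log2 ratio of mir-625 stayed between 3.05 and 3.57 under every scaling and pseudocount tried: 3.05 with median of ratios, 3.08 with TMM, 3.57 by all reads, 3.18 without the 10 most abundant precursors and 3.23 with a pseudocount of 5. Median of ratios and TMM shifted the median of all precursors by -0.19 and -0.16, and scaling by all reads by 0.33. The rank of mir-625 by ratio was 5 under each of these, 7 with a minimum of 20 counts, 3 with a minimum of 1000 and 15 with none. The number of precursors at least 2-fold apart was 101 of 411 with the main minimum of 100 counts, 54 of 221 with 1000 and 436 of 1038 with none. With a minimum of 20 counts it was 184. Precursors enter with a lower minimum and leave with a higher one. With none, they include entries such as mir-302c, with 1 count in AGO3 and 0 in AGO2. The median of precursors of like abundance was -0.23 with median of ratios, -0.21 with TMM and 0.22 over the 50 nearest; the cause of the last was not tested. As a share of all reads, mir-625 took 0.207% in AGO3 and 0.0174% in AGO2. Stacks naming FUT8 numbered 16 with at least 2 reads and 6 with at least 10, which held 74 sense reads; choice by position gave the same 46. With stems of at least 15 bases, a setting chosen after seeing the data, 16 of 27 precursors were at least 2-fold higher in AGO3, 15 of 26 without mir-625, against 31 of 255 (12.2%) with shorter stems. Several of the 16 passed the minimum only with their AGO3 counts, among them mir-4717, mir-642b and mir-659 with 16, 25 and 31 counts in AGO2. The 16 also include the mir-3158, mir-642 and mir-550a pairs, whose counts are uncertain as their own. With the minimum of 100 counts in AGO2 alone, also chosen after seeing the data, 7 stems of at least 20 bases were left. Of these 7, 3 were at least 2-fold higher in AGO3, mir-625 included. No paired analysis was possible because each protein has 1 library. Depth limits the rarer hairpins, whose counting intervals span over 2-fold, while that of mir-625 is narrow; no alternative addresses the lack of replicates.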
